A study of Gallus gallus with 9 samples.

Results

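The aminoacyl-tRNA synthetases are the enzymes that load amino acids onto transfer RNAs. Their transcripts were followed in chicken (Gallus gallus) primordial germ cells, the embryonic precursors of eggs and sperm. Members were chosen by a rule on symbols, with earlier results of these data known. The rule took single-letter amino acid codes followed by ARS with an optional digit, together with EPRS and the FARSA and FARSB subunits. The choice gave 34 of the 24356 listed genes, of which 19 were treated as cytosolic enzymes and 15, with symbols ending in 2, as mitochondrial enzymes. All 34 passed the filter on low counts, and the lowest count of a member in any library was 236, for HARS2. The cytosolic valyl enzyme and the mitochondrial valyl and tryptophanyl enzymes had no symbol of this form among the listed genes and were not analysed here.

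The series measured poly(A) RNA in 3 groups of 3 libraries, all labelled as primordial germ cells. The control group was labelled WT with a control vector, and the others were labelled Lin28A knockout and Lin28B knockout. The proteins of both genes bind RNA and hold back let-7 microRNA maturation, and the series title concerns their need in germ cell maintenance. The labels do not give the sex, age, clone, passage or culture of the cells, nor how the knockouts were made. Separate cultures are likewise not stated, and the p-values given here reflect the spread among the libraries alone, which may be technical.

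Each synthetase recognises 1 amino acid and its matching transfer RNAs and joins them at the cost of ATP, which supplies the ribosome with charged transfer RNA. Vertebrate cells keep separate nuclear-encoded enzymes for the cytosol and for the mitochondrion, although in mammals the GARS and KARS genes each encode both forms. EPRS joins a glutamyl and a prolyl enzyme in a single chain, FARSA and FARSB are the subunits of the cytosolic phenylalanyl enzyme, and FARS2 is its single-chain mitochondrial counterpart. In mammals several cytosolic enzymes sit together in a multisynthetase complex on the scaffold proteins AIMP1, AIMP2 and EEF1E1. Many cytosolic synthetase genes are known targets of ATF4, the transcription factor made when cells are short of amino acids or under protein-folding stress.

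Targeted transcripts and library quality were checked first. Relative to the control library with the same number, LIN28A was at 72.8% in replicate 1 of Lin28A knockout, at 76.2% in replicate 2 and at 7.28% in replicate 3. LIN28B showed no drop in the Lin28B knockout group (log2 fold change 0.05 ± 0.14, SE, edgeR adjusted p = 0.929). In Lin28A knockout LIN28B was measured at 40.3, 41.7 and 38.0 CPM against 52.3, 45.3 and 61.9 CPM in control, with every library below control, a log2 fold change of -0.41 ± 0.14 and an adjusted p by edgeR of 0.327. The descriptions of the Lin28B knockout samples also name the LIN28A result table, so directions below belong to the libraries as labelled. Library totals ran from 27.7 to 32.2 M counts, and levels are given as CPM, the count of a gene scaled to library size by TMM. A gene with 0 counts in a library could have a level of up to 0.0904 to 0.112 CPM (3 counts), a limit for counting error only. Replicate 3 stood apart in each group: as a root mean square of log2 differences over 10151 well-expressed genes, replicates 1 and 2 were 0.133 to 0.159 apart, and either of them and replicate 3 were 0.356 to 0.432 in control and Lin28B knockout and 0.688 to 0.700 in Lin28A knockout. Of 8 germ cell markers with a symbol, none was at 0 in any group, and their summed level was 3625 to 3709 CPM in control, 2857 to 3308 in Lin28A knockout and 3681 to 3875 in Lin28B knockout. DAZL was the largest part, at 1804 to 2103 CPM in control. By estimate 6 of the 8 were below control in Lin28A knockout and 3 in Lin28B knockout, beside 47.3% and 50.2% of all genes. CXCR4 was at 40.0, 40.5 and 24.3 CPM in control and 13.6, 14.7 and 9.16 CPM in Lin28A knockout. Its log2 fold change was -1.48 ± 0.30, with an edgeR adjusted p of 0.126, or 0.0159 with the replicate number as a block. In bulk RNA such as this, fewer cells of a type and less RNA per cell cannot be told apart.

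**Figure D1:**
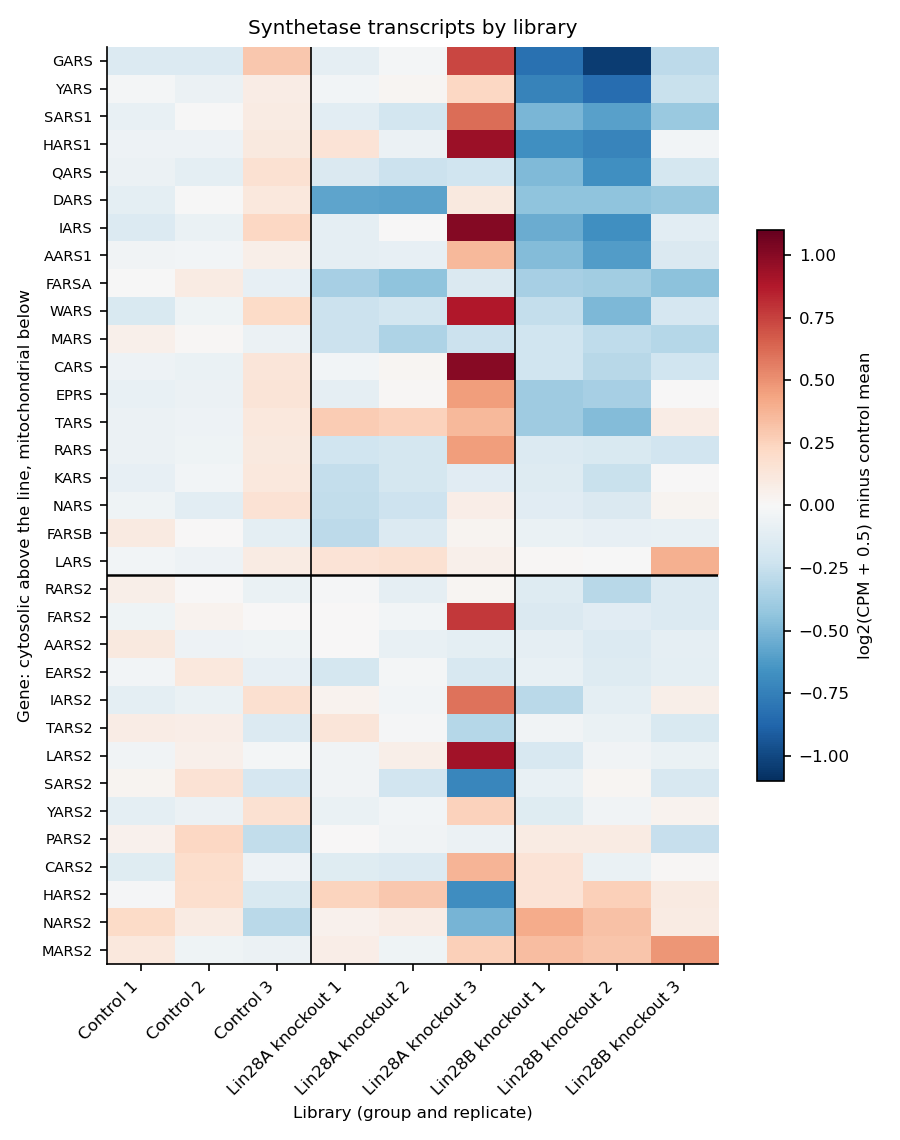
Colour gives log2(CPM + 0.5) of 19 cytosolic and 14 mitochondrial synthetase genes (vertical axis) in each library (horizontal axis) minus the mean of the 3 control libraries. The blue block at the upper right shows cytosolic enzymes lower in Lin28B knockout, and the red column shows several enzymes, IARS and CARS among them, higher in replicate 3 of Lin28A knockout alone.

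In the libraries labelled Lin28B knockout, 18 of the 19 cytosolic synthetase transcripts had a lower estimate than in control, beside 50.2% of all 15475 genes tested. Their median log2 fold change was -0.32, from -0.70 for GARS to 0.14 for LARS, beside a median of -0.00 over all genes tested. The 15 mitochondrial enzymes had a median of -0.08, with 10 below control and 5 above. By edgeR, 0 of the 34 members passed the Benjamini-Hochberg adjusted threshold of 0.05, which 2 genes in the whole table did (0.0129%, both lower, and 0% higher), and 0 passed with the replicate number as a block, where 0.103% of genes were called lower and 0.0517% higher. At an unadjusted p under 0.05, 8 cytosolic members were lower, beside 4.42% of all genes, and 0 were higher, beside 4.45%, while 1 mitochondrial member, MARS2, was higher. DESeq2 on the same 9 libraries also called 0 members, beside 0.45% of genes called lower and 0.32% called higher. With replicates 1 and 2 only, edgeR called 15 of the 19 cytosolic enzymes lower, beside 16.2% of all genes. Without replicate 3 of Lin28A knockout, which enters through the shared estimate of spread, SARS1 and DARS were called lower with edgeR adjusted p of 0.0295 and 0.0414, beside 0.563% of genes.

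GARS, the glycyl-tRNA synthetase (ENSGALG00000005694), had the lowest estimate. It was measured at 353, 354 and 483 CPM in control and at 221, 190 and 321 CPM in Lin28B knockout. Every Lin28B knockout library lay below every control library, and replicate 3 was the highest library within each of the 2 groups. The level was 0.615 times that of control, a log2 fold change of -0.70 ± 0.26 (SE, n = 3 libraries per group) with an edgeR adjusted p of 0.509.

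YARS, the tyrosyl-tRNA synthetase (ENSGALG00000003563), followed with 130, 126 and 140 CPM in control against 79.1, 73.3 and 111 CPM in Lin28B knockout. The groups did not overlap. Its log2 fold change was -0.59 ± 0.16, with an edgeR adjusted p of 0.414. SARS1, the cytosolic seryl-tRNA synthetase (ENSGALG00000026809), stood at 398, 420 and 450 CPM in control and at 299, 279 and 318 CPM in Lin28B knockout. Here too the groups were apart, and replicate 3 of Lin28B knockout differed little from the other two. The log2 fold change of SARS1 was -0.50 ± 0.19, with an edgeR adjusted p of 0.526.

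**Figure D2:**
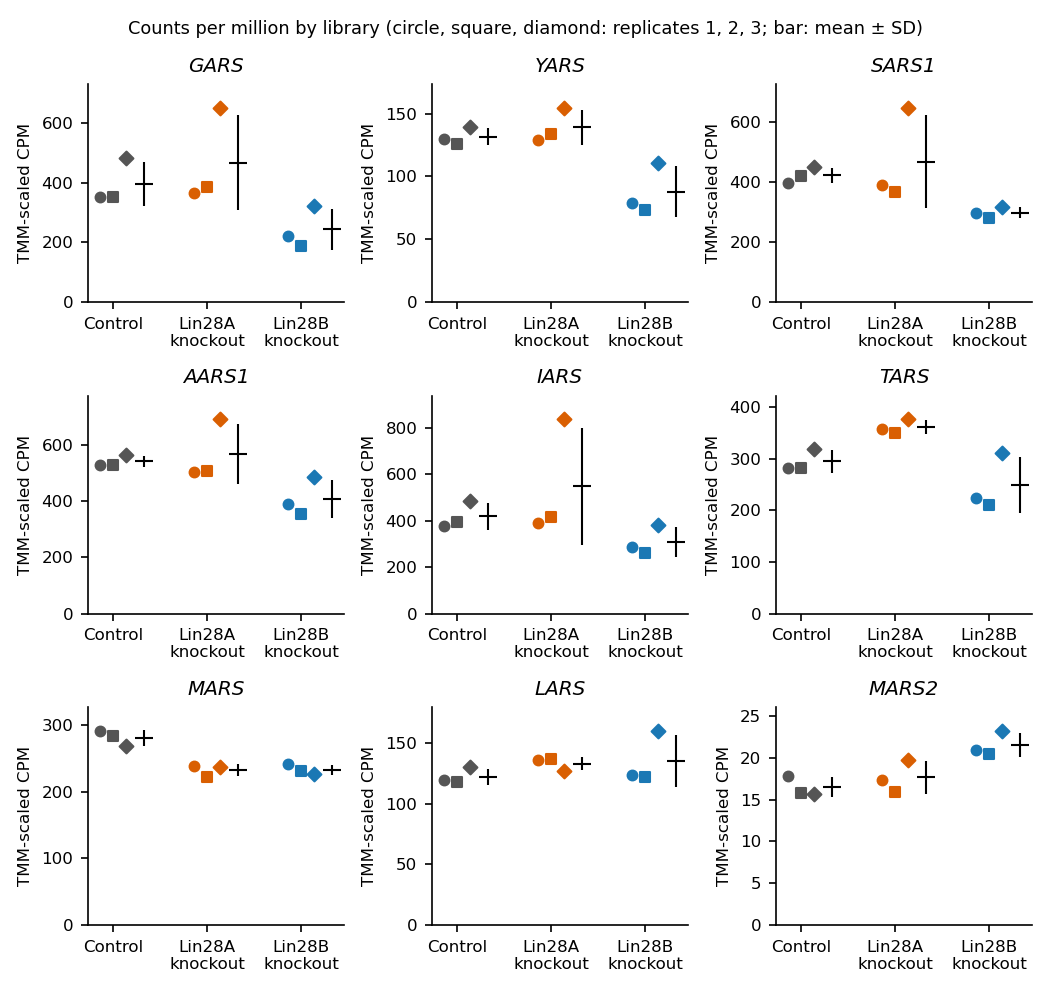
TMM-scaled CPM of 9 synthetase genes (vertical axes, from 0) in the 3 groups; symbols are replicates 1, 2 and 3, and the bar beside them is the mean ± SD. GARS, YARS, SARS1 and AARS1 lay lower in every Lin28B knockout library than in any control library, MARS lay lower in both knockout groups, and MARS2, its mitochondrial counterpart, lay higher in Lin28B knockout.

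In all, 11 of the 19 cytosolic transcripts had Lin28B knockout libraries that all lay below control, beside 11.4% of genes tested. They were AARS1, CARS, DARS, FARSA, GARS, MARS, QARS, RARS, SARS1, WARS and YARS, the enzymes for alanine, cysteine, aspartate, phenylalanine, glycine, methionine, glutamine, arginine, serine, tryptophan and tyrosine. AARS1 was measured at 529, 532 and 567 CPM in control and at 389, 354 and 485 CPM in Lin28B knockout, giving a log2 fold change of -0.41 ± 0.15 and an adjusted p by edgeR of 0.518. DARS stood at 172, 185 and 201 CPM in control and at 137, 136 and 139 CPM in Lin28B knockout, giving a log2 fold change of -0.44 ± 0.18 and an adjusted p by edgeR of 0.542. QARS and FARSA were also separated, at log2 fold changes of -0.44 ± 0.13 and -0.41 ± 0.11 and edgeR adjusted p of 0.470 and 0.410.

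The isoleucyl and histidyl enzymes also had low estimates, but their groups overlapped through replicate 3. IARS stood at 375, 395 and 487 CPM in control and at 285, 261 and 383 CPM in Lin28B knockout, and HARS1 at 64.0, 63.8 and 71.6 CPM against 41.5, 40.0 and 65.0 CPM. Replicates 1 and 2 of Lin28B knockout were below control for both genes, while replicate 3 reached into the control range. Their log2 fold changes were -0.43 ± 0.28 and -0.45 ± 0.27, with edgeR adjusted p of 0.668 and 0.646. LARS, the leucyl enzyme, was the single cytosolic member with an estimate above control, at 119, 117 and 130 CPM in control and 123, 122 and 160 CPM in Lin28B knockout. Its log2 fold change was 0.14 ± 0.12 with an edgeR adjusted p of 0.749, and the groups overlapped.

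The authors' deposited table for this comparison listed 5 of the cytosolic enzymes as lower at an adjusted p under 0.05, beside 2.29% of its 14840 genes with an adjusted p, and 0 as higher, beside 2.3%. In the authors' deposited table SARS1 had a log2 fold change of -0.51 and an adjusted p of 6.03e-04, DARS -0.44 and 0.00292, and FARSA -0.41 and 0.00481. YARS had -0.59 and 0.0308, and GARS -0.71 and 0.0372, in the authors' deposited table. The edgeR estimates for the same genes, in the same order, were -0.50, -0.44, -0.41, -0.59 and -0.70. The authors' SE for SARS1 was 0.11 in this table and 0.25 in that for Lin28A knockout. By edgeR over 9 libraries the SE, derived from the F statistic of its test, was 0.19 in both comparisons. For SARS1, DARS, FARSA, YARS and GARS in Lin28B knockout the authors' SE was 0.11, 0.11, 0.10, 0.18 and 0.22. The edgeR SE was 0.19, 0.18, 0.11, 0.16 and 0.26 in the same order, so it was nearly alike for FARSA and smaller for YARS. What set the adjusted p-values of the authors and of edgeR apart was not tested. No mitochondrial enzyme was listed as changed in the authors' deposited table.

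Among the mitochondrial enzymes of Lin28B knockout, MARS2, the mitochondrial methionyl enzyme, was the only one whose libraries all lay above control, beside 11.6% of genes tested. This count, 1 of 15, is no higher than that share. MARS2 was measured at 17.8, 15.8 and 15.7 CPM in control and at 20.9, 20.4 and 23.2 CPM in Lin28B knockout, a log2 fold change of 0.39 ± 0.15 with an edgeR adjusted p of 0.526. Its cytosolic counterpart MARS went the other way, at 292, 284 and 268 CPM in control against 241, 231 and 227 CPM in Lin28B knockout, a log2 fold change of -0.27 ± 0.09 and an adjusted p by edgeR of 0.485. NARS2, the mitochondrial asparaginyl enzyme, stood at 58.3, 53.4 and 40.7 CPM in control and 66.7, 62.9 and 53.4 CPM in Lin28B knockout. The groups overlapped, since replicate 3 of Lin28B knockout lay below replicates 1 and 2 of control, and the log2 fold change was 0.26 ± 0.19 (edgeR adjusted p = 0.712). RARS2, the mitochondrial arginyl enzyme, had 27.5, 26.3 and 25.0 CPM in control and 23.8, 21.2 and 23.6 CPM in Lin28B knockout. Its log2 fold change was -0.20 ± 0.12 (edgeR adjusted p = 0.652). RARS2, AARS2, FARS2 and LARS2, 4 of the 15 mitochondrial enzymes, lay below control in every library, beside 11.4% of genes tested.

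**Figure D3:**
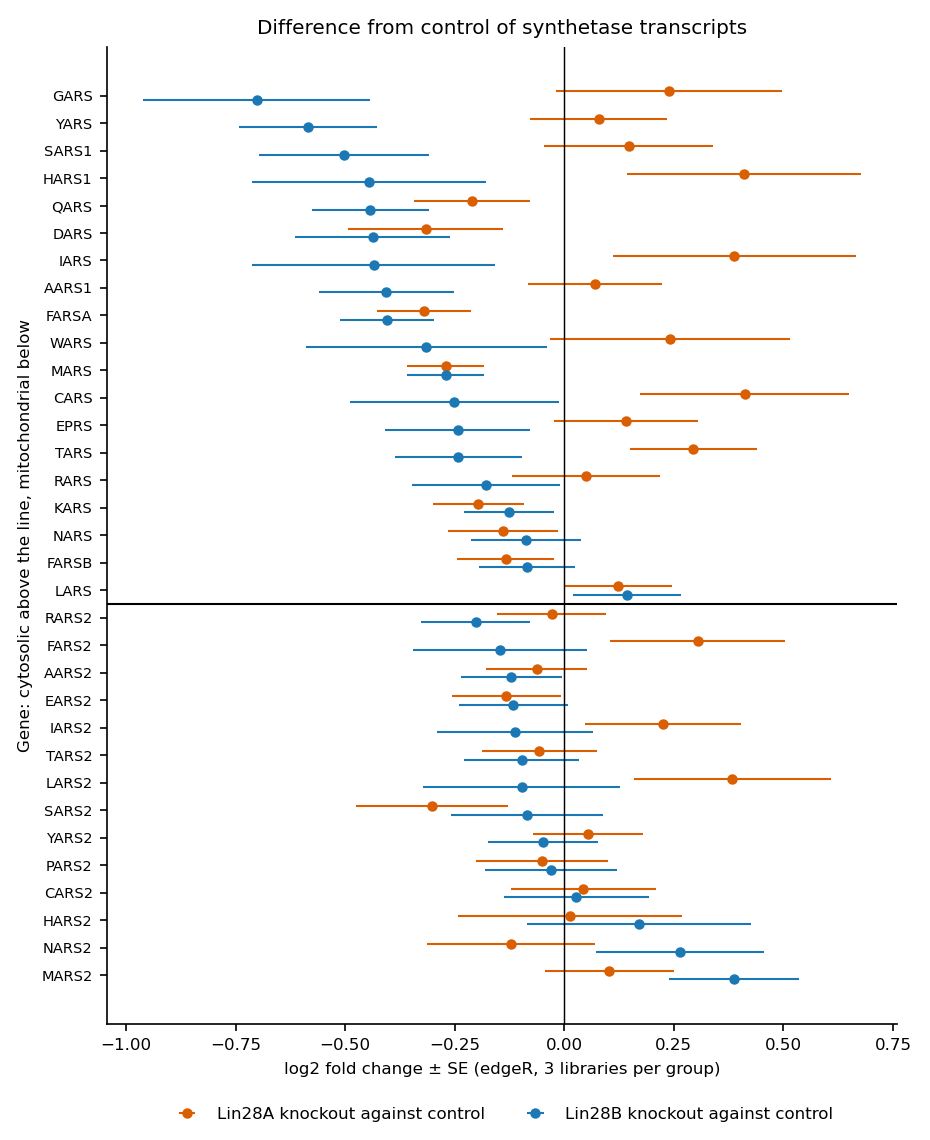
Log2 fold change against control (horizontal axis) of 19 cytosolic and 14 mitochondrial synthetase genes (vertical axis) in Lin28A knockout (orange) and Lin28B knockout (blue), with bars of 1 SE from edgeR over 3 libraries per group. Blue points lie below 0 for every cytosolic gene but LARS, while orange points lie on both sides of 0, and the 2 comparisons share the control libraries.

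In Lin28A knockout the split of the cytosolic transcripts turned on 1 library. Of the 19, 12 had an estimate above control and 7 below, with a median log2 fold change that was 0.08 and a range from -0.32 to 0.41. Without replicate 3 of Lin28A knockout, 3 were above and 16 below, with a median of -0.16. With replicates 1 and 2 of every group only, 8 were above and 11 below, with a median of -0.11. The mitochondrial enzymes had a median of -0.03, with 7 above and 8 below. Of all genes tested, 52.7% lay above control and 47.3% below. By edgeR 0 members passed the adjusted threshold, beside 0.00646% of all genes called lower and 0% called higher, and 0 passed with the replicate block, beside 0.0388% called lower and 0.0452% called higher. At an unadjusted p under 0.05, 2 cytosolic members, FARSA and MARS, were lower beside 5.13% of genes, and 0 were higher, beside 5.49%. DESeq2 called 0 members, beside 1.19% of genes higher and 0.929% lower. The authors' deposited table listed 0 members, beside 1.17% of genes higher and 0.734% lower. With replicates 1 and 2 only, edgeR called 2 cytosolic members higher and 7 lower, beside 15.3% and 14.8% of all genes.

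The 3 largest cytosolic estimates came with a single high library, replicate 3. CARS, the cysteinyl enzyme, stood at 196, 194 and 223 CPM in control and at 199, 207 and 408 CPM in Lin28A knockout, IARS reached 389, 418 and 837 CPM, and HARS1 reached 73.5, 63.5 and 128 CPM. Replicates 1 and 2 lay in or near the control range and replicate 3 exceeded their mean by 1.01 for CARS, 1.05 for IARS and 0.90 for HARS1 on the log2 scale. The log2 fold changes were 0.41 ± 0.24 for CARS, 0.39 ± 0.28 for IARS and 0.41 ± 0.27 for HARS1, with edgeR adjusted p of 0.593, 0.668 and 0.635. Without Lin28A knockout replicate 3 the estimates for CARS and IARS were -0.0069 and -0.054. In that fit DARS and FARSA were lower than control, at -0.59 and -0.41 and edgeR adjusted p of 0.0115 and 0.0486, beside 0.967% of genes called lower. Replicate 3 of Lin28A knockout was also the library with the lowest LIN28A, at 17.7 CPM against 117 and 109 CPM in replicates 1 and 2, and the part of this difference in the result was not tested.

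TARS, the threonyl-tRNA synthetase, was the only 1 of the 34 members whose Lin28A knockout libraries all lay above control, beside 8.21% of genes tested. It was measured at 282, 283 and 320 CPM in control and at 358, 350 and 377 CPM in Lin28A knockout. The 3 Lin28A knockout libraries were close together, with replicate 3 little above the others. Its log2 fold change was 0.29 ± 0.14 with an edgeR adjusted p of 0.518. FARSA, KARS, MARS and QARS, 4 of the 34, lay below control in every Lin28A knockout library, beside 9.78% of genes tested. The count above is under its share of all genes, and the count below is near its share. MARS stood at 239, 222 and 238 CPM in Lin28A knockout, about the level it had in Lin28B knockout, giving a log2 fold change of -0.27 ± 0.09 and an adjusted p by edgeR of 0.314. FARSA stood at 134, 143 and 126 CPM in control, 104, 98.2 and 120 CPM in Lin28A knockout and 104, 103 and 97.5 CPM in Lin28B knockout. FARSB, the other subunit of the same enzyme, had log2 fold changes of -0.13 and -0.08 in the 2 knockouts, and its libraries overlapped control in both.

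For the mitochondrial enzymes, replicate 3 of Lin28A knockout was high for some and low for others. LARS2, the mitochondrial leucyl enzyme, stood at 48.7, 51.9 and 49.2 CPM in control and at 48.5, 52.1 and 94.97 CPM in Lin28A knockout, a log2 fold change of 0.38 ± 0.22 and an adjusted p by edgeR of 0.595. FARS2 had 43.1, 45.7 and 44.8 CPM in control and 44.7, 43.7 and 76.5 CPM in Lin28A knockout, a log2 fold change of 0.30 ± 0.20 and an adjusted p by edgeR of 0.638. SARS2, the mitochondrial seryl enzyme, was low in the same library, with 63.6, 69.8 and 54.8 CPM in control and 60.7, 54.0 and 37.9 CPM in Lin28A knockout. Its log2 fold change was -0.30 ± 0.17 (edgeR adjusted p = 0.590). For all 15 mitochondrial members the libraries overlapped between Lin28A knockout and control.

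Set against each other, Lin28A knockout had higher estimates than Lin28B knockout for 14 of the 19 cytosolic enzymes, beside 50.4% of all genes, with a median log2 difference of 0.38. The 15 mitochondrial enzymes had a median difference of 0.02. By edgeR 0 members passed the adjusted threshold, beside 0.375% of genes called higher and 0.142% called lower. With the replicate number as a block, edgeR called 6 cytosolic members higher and 0 lower, beside 3.55% and 2.2% of genes. Same-numbered libraries of the 2 knockouts did not all correlate above 0.1, so the block was not the main fit here. At an unadjusted p under 0.05, 9 cytosolic members were higher, beside 10% of genes, and 0 were lower, beside 7.96%. The mitochondrial FARS2 was higher at the same level. DESeq2 called 5 cytosolic members higher and 0 lower, beside 3.28% and 2.3% of genes, with adjusted p of 0.0122 for YARS, 0.0192 for GARS, 0.0407 for TARS, 0.0474 for HARS1 and 0.04999 for SARS1. With replicates 1 and 2 only, edgeR called 11 cytosolic members higher, beside 20.2% of genes, and without replicate 3 of Lin28B knockout it called TARS and YARS higher at adjusted p of 0.0194 and 0.0192, beside 0.77% of genes. This comparison reuses the libraries of both comparisons with control, so its differences are not independent of theirs.

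In 7 cytosolic genes, AARS1, CARS, GARS, IARS, SARS1, TARS and YARS, every Lin28A knockout library lay above every Lin28B knockout library, beside 11.7% of genes tested. GARS reached 365, 388 and 652 CPM in Lin28A knockout against 221, 190 and 321 CPM in Lin28B knockout, a log2 difference of 0.94 ± 0.26 with an edgeR adjusted p of 0.123. HARS1 differed by 0.86 ± 0.27 and IARS by 0.82 ± 0.28, with edgeR adjusted p of 0.157 and 0.180. HARS1 overlapped between the groups, since replicate 3 of Lin28B knockout was above replicate 2 of Lin28A knockout. YARS had 129, 134 and 155 CPM in Lin28A knockout and differed by 0.66 ± 0.16 with an edgeR adjusted p of 0.093, the lowest of any member in this comparison. TARS was at 225, 211 and 312 CPM in Lin28B knockout and differed by 0.54 ± 0.15 with an edgeR adjusted p of 0.116. AARS1 had 505, 510 and 693 CPM in Lin28A knockout and differed by 0.48 ± 0.15 with an edgeR adjusted p of 0.165.

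Of the 15 mitochondrial enzymes, FARS2 and RARS2 lay above Lin28B knockout in every Lin28A knockout library, beside 11.7% of genes tested. MARS2 and NARS2 lay below, beside 12.6% of genes tested. Both counts, 2 of 15, are near those shares. FARS2 differed by 0.45 ± 0.20 and LARS2 by 0.48 ± 0.22, with edgeR adjusted p of 0.273 and 0.294. For both genes replicate 3 of Lin28A knockout was the high library, as it was against control. NARS2 had 51.8, 53.2 and 34.999 CPM in Lin28A knockout and differed by -0.39 ± 0.19 with an edgeR adjusted p of 0.317.

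By membership of the complex, the 8 enzymes that form the multisynthetase complex in mammals (DARS, EPRS, IARS, KARS, LARS, MARS, QARS and RARS) had a median log2 fold change of -0.26 in Lin28B knockout, with 7 below control. The 11 other cytosolic members had a median of -0.41, and all 11 estimates were below control. In Lin28A knockout these medians were -0.07 and 0.15, and between the knockouts 0.17 and 0.56. The difference between the 2 sets was not tested. The scaffold genes AIMP1, AIMP2 and EEF1E1 had log2 fold changes of -0.13, -0.17 and -0.18 in Lin28B knockout. In either comparison with control edgeR called 0 of the 3, beside at most 0.0129% of all genes in a direction. At an unadjusted p under 0.05 there were 0, beside at most 5.49%, and by DESeq2 0, beside at most 1.19%.

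Cytosolic enzymes were set beside their mitochondrial counterparts in 15 pairings, with EPRS used for both the glutamyl and the prolyl enzymes and FARS2 used for both FARSA and FARSB. In Lin28B knockout the cytosolic gene had the lower log2 fold change in 12 pairings, with a median difference of -0.28. The widest gaps were -0.66 for MARS and MARS2, -0.62 for HARS1 and HARS2 and -0.54 for YARS and YARS2. The exceptions were FARSB, LARS and RARS, whose estimates were above those of FARS2, LARS2 and RARS2. In Lin28A knockout the cytosolic gene was the lower in 5 pairings, and the median difference was 0.13. The 2 comparisons share the control libraries, and pairings are genes of the same libraries and not replicates, so no test was made over them.

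**Figure D4:**
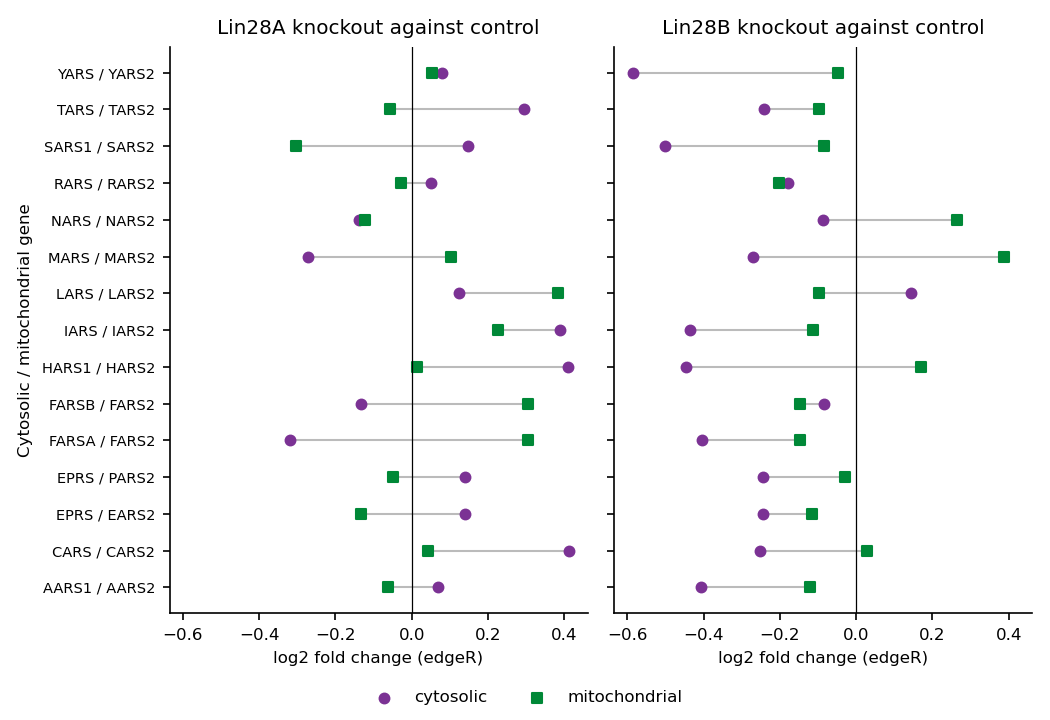
Log2 fold change against control from edgeR (horizontal axis) of cytosolic (purple circles) and mitochondrial (green squares) enzymes for the same amino acid (vertical axis), in Lin28A knockout (left) and Lin28B knockout (right). Purple lies to the left of green in 12 of 15 pairings on the right and in 5 of 15 on the left.

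The level of the whole set was also taken library by library. The median log2(CPM + 0.5) of the 19 cytosolic genes minus the control mean was -0.06, -0.06 and 0.11 in control, -0.12, -0.15 and 0.35 in Lin28A knockout and -0.39, -0.45 and -0.18 in Lin28B knockout. The Lin28B knockout libraries were the lowest, replicate 3 of Lin28A knockout was the highest, and the mitochondrial median lay between -0.09 and 0.06 in all 9 libraries. Cytosolic enzymes took 0.471%, 0.473% and 0.513% of all counts in control, 0.462%, 0.466% and 0.632% in Lin28A knockout and 0.372%, 0.354% and 0.434% in Lin28B knockout. Against the control library of the same replicate number, 18, 18 and 17 of the 19 cytosolic genes were lower in Lin28B knockout replicates 1, 2 and 3. Of all 15475 genes tested, 7643, 7644 and 8149 were lower. The cytosolic medians were -0.33, -0.44 and -0.32. The same comparison for Lin28A knockout gave 13, 12 and 7 of 19 lower, with medians of -0.07, -0.12 and 0.24, beside 7731, 7732 and 7739 of all genes lower. The data cannot show that the numbers pair replicates 1 and 2.

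Replicate 3 was the high library for the cytosolic enzymes in each group. Replicate 3 exceeded the mean of replicates 1 and 2 for 16 of 19 genes in control, 17 in Lin28A knockout and 15 in Lin28B knockout, beside 48.7%, 49.9% and 48.1% of all genes. The median excess on the log2 scale was 0.17, 0.45 and 0.20. In Lin28A knockout it was widest for WARS, the tryptophanyl enzyme, at 56.3, 57.8 and 123 CPM, while HARS2, the mitochondrial histidyl enzyme, was low in the same library, at 16.0, 16.6 and 8.13 CPM. The mitochondrial enzymes were higher in replicate 3 for 3, 8 and 7 of 15 genes in the same order.

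ATF4 and genes of its programme (amino acid synthesis, amino acid transport and stress response) had their highest and lowest medians in the same libraries as the cytosolic enzymes. The list also held EIF2AK4, GCN1 and IMPACT, listed for the sensing of uncharged transfer RNA. Of 31 listed genes 25 were tested, these among them, and their median by library was -0.09, -0.06 and 0.12 in control, -0.02, -0.01 and 0.73 in Lin28A knockout and -0.84, -1.13 and -0.39 in Lin28B knockout. In replicates 1 and 2 of Lin28A knockout the cytosolic medians were lower than these, at -0.12 and -0.15. In Lin28B knockout 23 of the 25 had a lower estimate than control, beside 50.2% of all genes, and the median log2 fold change was -0.80. The median in Lin28A knockout was 0.31, with 22 above control, beside 52.7% of all genes. ATF4 itself was measured at 515, 512 and 541 CPM in control and at 308, 297 and 455 CPM in Lin28B knockout, a log2 fold change of -0.56 ± 0.16 and an adjusted p by edgeR of 0.457.

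ASNS, the asparagine synthetase that is not a transfer RNA enzyme, had 279, 292 and 366 CPM in control, 269, 275 and 666 CPM in Lin28A knockout and 144, 122 and 199 CPM in Lin28B knockout. Its Lin28B knockout libraries were the lowest and replicate 3 of Lin28A knockout the highest. Against control, edgeR called 0 of the 25 in either knockout, with 17 lower in Lin28B knockout at an unadjusted p under 0.05, beside 4.42% of all genes. With the replicate block 3 were called lower there, beside 0.103% of genes: PYCR1, SLC7A5 and STC2, which act in proline synthesis, large neutral amino acid uptake and secreted stress signalling, with edgeR adjusted p of 0.0422, 0.0318 and 0.0422. DESeq2 also called 3 of the 25 lower in Lin28B knockout, beside 0.45% of genes, and 1 higher in Lin28A knockout, beside 1.19%. By edgeR at an unadjusted p under 0.05, 1 of the 25 was higher and 1 lower in Lin28A knockout. These counts are near the 5.49% and 5.13% of all genes. The part of this programme in the synthetase values was not tested.

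**Figure D5:**
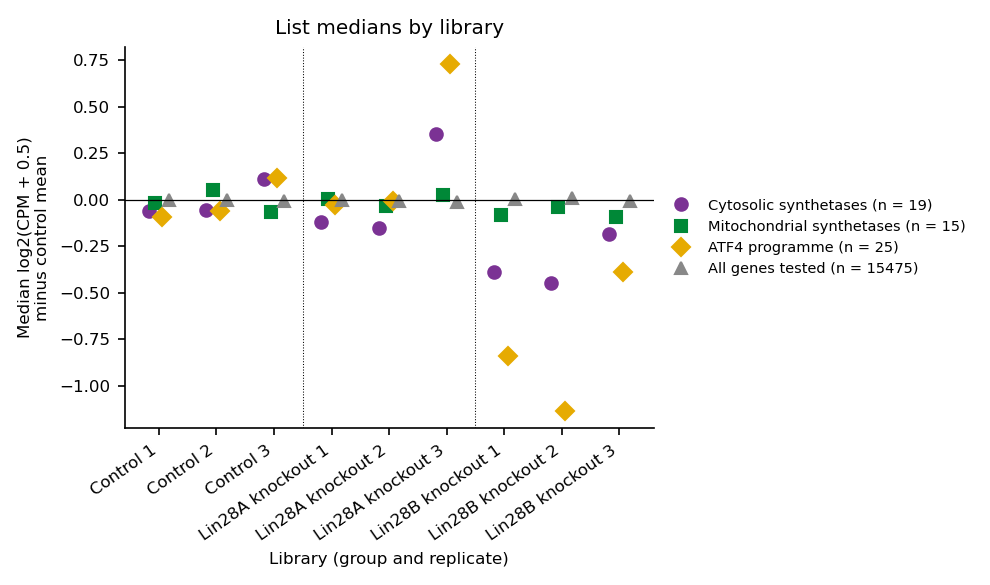
Median over each gene list of log2(CPM + 0.5) minus the control mean (vertical axis) in each of the 9 libraries (horizontal axis). The cytosolic synthetases and the ATF4 programme share their high point in Lin28A knockout replicate 3 and their low points in Lin28B knockout replicates 1 and 2, while mitochondrial synthetases and all genes tested stay near 0.

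Other genes that handle transfer RNA were described by list. Of those in the lists below edgeR called 0 in Lin28B knockout, beside 0.0129% of all genes called lower and 0% higher. At an unadjusted p under 0.05 there were 0, beside 4.42% and 4.45%, and by DESeq2 0, beside 0.45% and 0.32%. In lists this small, counts of 0 are near those shares. Of 7 tested elongation factor genes, 6 had estimates above control in Lin28B knockout, beside 7709 of all 15475 genes tested. Their median log2 fold change was 0.08. The exception was EEF1A1, whose product delivers charged transfer RNA to the ribosome, at -0.06. By library the median of these 7 genes minus the control mean was 0.12, 0.11 and -0.18 in Lin28B knockout, so replicate 3 went the other way. The 4 genes of mitochondrial amidation and formylation had a median of -0.12, the 5 tested genes of trans-editing and peptidyl-tRNA release -0.22, and the 3 genes of transfer RNA export and CCA addition 0.07. The 4 tested genes of selenocysteine charging had a median of -0.12. Among them SEPSECS, which makes selenocysteine on its transfer RNA, stood at 54.7, 53.3 and 98.5 CPM in control and 30.5, 34.8 and 60.8 CPM in Lin28B knockout. Its log2 fold change was -0.71 ± 0.35 with an edgeR adjusted p of 0.595, or 0.0422 with the replicate block, and the groups overlapped at replicate 3. The 5 genes MYC, MYCN, MTOR, RPTOR and RHEB, of growth signalling, had a median of -0.04 in Lin28B knockout.

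Markers of other cells also differed between libraries. All 12 fibroblast markers were detected, with TWIST1 under 1 CPM on average, and their summed level was 691 to 1107 CPM in control, 567 to 1526 in Lin28A knockout and 530 to 1102 in Lin28B knockout. These sums rest largely on collagen genes: in Lin28A knockout COL1A1 was at 590, 517 and 73.3 CPM and COL1A2 at 534, 551 and 37.5 CPM. In control COL1A1 was at 109, 102 and 49.6 CPM and COL1A2 at 221, 211 and 695 CPM. By estimate 8 of the 12 lay below control in Lin28A knockout and 9 in Lin28B knockout, beside 47.3% and 50.2% of all genes. The Lin28A knockout count differed by library. In its replicates 1, 2 and 3, 9, 8 and 2 of the 12 were above the control mean, beside 7700, 7635 and 7624 of all 15475 genes. At an unadjusted p under 0.05 by edgeR, 3 were higher and 1 lower in Lin28A knockout, beside 5.49% and 5.13% of all genes. The 5 leukocyte markers with a symbol summed to 15.1 to 19.3 CPM in control, 20.9 to 28.2 in Lin28A knockout and 15.0 to 16.6 in Lin28B knockout. LCP1 was the largest of them, at 9.41, 8.02 and 8.77 CPM in control and 11.6, 14.5 and 20.3 CPM in Lin28A knockout. Of the 4 leukocyte markers tested, 2 lay above control in Lin28A knockout and 3 in Lin28B knockout, beside 8155 and 7709 of all 15475 genes. The 7 endothelial markers with a symbol summed to 17.2 to 33.2 CPM in control, 6.24 to 36.3 in Lin28A knockout and 36.1 to 43.7 in Lin28B knockout, and the 2 erythroid markers with a symbol, HBZ and TAL1, to 0 to 0.895 CPM over all libraries. The endothelial sum was mostly PECAM1, at 28.5, 26.1 and 15.0 CPM in control. Of the 5 endothelial markers tested, 2 lay above control in Lin28A knockout and 5 in Lin28B knockout, beside 8155 and 7709 of all 15475 genes. In Lin28A knockout the log2 fold changes ran from -2.20 ± 0.57 for KDR to 3.58 ± 1.07 for ERG, with edgeR adjusted p of 0.214 and 0.294. KDR was at 0.783, 0.366 and 0.276 CPM there against 3.49, 2.17 and 0.970 CPM in control. ERG was at 7.74, 7.56 and 0.138 CPM against 0.343, 0.711 and 0.224 CPM, so its replicate 3 lay below control. CDH5, an endothelial marker under 1 CPM on average that did not pass the filter, was at 0 in all 3 Lin28A knockout libraries. It was near the limit of detection in control too, at 0.28, 0.32 and 0.075 CPM, and at 1.17, 0.79 and 0 CPM in Lin28B knockout. No other marker of these lists was at 0 throughout a group. The part of other cells in the synthetase values was not tested. In the gene order of RefSeq (GRCg7b), HARS1 and HARS2 are neighbours, and 8 members (HARS1, KARS, MARS2, PARS2, RARS, RARS2, SARS2 and WARS) overlap an adjacent protein-coding gene. The counts are per Ensembl gene and the processing notes name other builds, so overlap in the annotation that was counted was not checked. The sources used here do not give the strand setting of the counting, and counts of these 8 may include reads of the neighbour.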

How the data were processed

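Poly(A) RNA of 9 libraries (3 per group) was analysed from the deposited whole-number counts per Ensembl gene, per the file headers 1 table per library. The submitters' processing notes name HISAT2 2.1.0, featureCounts 2.0.3, DESeq2 1.36.0, edgeR 3.38.4 and the builds GRCg6a and galGal6, with no role stated. The authors' deposited tables hold log2 fold changes, p-values, a Wald score and a mean signal per gene, per the file headers from DESeq2. Symbols came from these tables (13354 of 24356 identifiers).

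Here edgeR 4.0.16 (R 4.3.3) was run on all 15475 genes passing filterByExpr: TMM, a quasi-likelihood fit of 9 libraries on group, and Benjamini-Hochberg adjusted p under 0.05. The common biological coefficient of variation was 0.265. Each SE given for edgeR was derived as the absolute log2 fold change divided by the square root of the F statistic. DESeq2 1.42.0, RLE scaling, no filter, a replicate block, 6 libraries only, replicates 1 and 2 only and each library left out were alternatives. Same-numbered libraries deviated together across genes (r = 0.266, 0.174 and 0.321 for Lin28A knockout with control, 0.222, 0.291 and 0.439 for Lin28B knockout with control), so numbers were taken to pair these groups. Replicates 1 and 2 of unlike number also did (r = 0.216 and 0.224 for Lin28A knockout with control, 0.228 and 0.269 for Lin28B knockout with control). Replicate 3 correlated negatively with replicates 1 and 2 of the other group. These values set replicate 3 apart and cannot show that the numbers pair replicates 1 and 2. The scripts were tested on simulated data. Library values in full were given for members called by edgeR with or without the block and the 3 largest of each compartment per comparison, and other members named were chosen after their values were seen. The members and lists were chosen with earlier results of these data known. A single member is counted in the list values but not reported by itself here.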

Additional observations from a re-analysis of the deposited data

How the results depend on the processing

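The number of called genes moved with most settings, and the cause was not tested. Over all genes tested, Lin28A knockout against control had 1 call, and 333 by DESeq2, 5 with no filter, 13 with the replicate block, 0 with the 6 libraries of the 2 groups only, 4724 with replicates 1 and 2 only and 0 to 453 with single libraries left out. Lin28B knockout against control had 2, and 118 by DESeq2, 24 with the block, 1 with 6 libraries, 4898 with replicates 1 and 2 and 0 to 166 with single libraries left out. The knockouts against each other had 80, and 921 by DESeq2, 136 with no filter, 890 with the block, 9 with 6 libraries, 6196 with replicates 1 and 2 and 0 to 474 with single libraries left out.

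Cytosolic synthetases called with replicates 1 and 2 only numbered 9 in Lin28A knockout (2 higher, 7 lower), 15 in Lin28B knockout (all lower) and 12 between the knockouts, and mitochondrial ones 1, 1 and 4, beside 30.1%, 31.2% and 39.5% of all genes. With single libraries left out, 0 to 2 cytosolic members were called in each comparison. Between the knockouts 5 were called by DESeq2 and 6 with the block, beside 3.55% of genes called higher and 2.2% lower (AARS1, GARS, HARS1, IARS, TARS and YARS, edgeR adjusted p = 0.0086 to 0.039). Same-numbered libraries of the 2 knockouts correlated at 0.0565, 0.0643 and 0.0876 over all genes and at 0.129, 0.0829 and 0.121 over the 10151 genes averaging 3 or more in log2 CPM, so not every pair exceeded 0.1 on either set. The block called no member against control.

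With single libraries left out, the median log2 fold change in Lin28A knockout ran from -0.16 to 0.15 (cytosolic) and -0.065 to 0.022 (mitochondrial), and the mitochondrial median between the knockouts from 0.0046 to 0.060. In Lin28A knockout against control, 8 of the 34 estimates changed sign with replicates 1 and 2 of every group only. Without replicate 3 of Lin28A knockout alone, with replicate 3 of control kept, 15 of the 34 changed sign. Of those described with values, the estimates ranged over the left-out libraries from -0.0069 to 0.59 for CARS, -0.075 to 0.41 for GARS, -0.054 to 0.58 for IARS, -0.16 to 0.29 for SARS1, -0.0044 to 0.13 for YARS and -0.010 to 0.44 for FARS2. With replicates 1 and 2 only, SARS1 was at -0.11, FARS2 at -0.0061 and LARS2 at -0.00073. Of 264 values of named genes under the other settings, 221 kept their direction and side of the threshold. The lowest member count was 236, well above the floor of 3 counts.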
